A study of Mus musculus with 4 samples.

Results

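Foxf1, Foxf2, Prrx1, Prrx2, Msx1, Msx2, Pitx1 and Irx3 are 8 transcription factor genes, 6 with a homeobox and 2 with a forkhead domain, that are known from the lateral plate mesoderm of the embryo and from the limbs, gut wall and vessels that come from it. They were chosen by name, with earlier results of these data known. The lists of other genes below were chosen with the same knowledge, so their counts and medians may partly follow from that choice. Every non-control probe whose RefSeq accession maps to one of the 8 symbols was used: 9 probes for 8 genes, out of 20660 named genes on the arrays. Of the 8, 7 had a probe that passed the filter on dim probes (a spot flagged well above background by the scanner software, on both arrays of 1 fraction or of both) and entered the test, beside 13926 named genes in all; Foxf1 did not.

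The cells came from mouse EB5 embryonic stem cells carrying a Hoxb6-Venus reporter, a fluorescent protein reporting on the posterior homeobox gene Hoxb6, that were differentiated for 6 days on OP9 cells, a mouse stromal line used as a feeder layer. Flk-1 positive cells (Flk-1 is the VEGF receptor encoded by Kdr, carried by early mesoderm and endothelium) were sorted by Venus into a Hoxb6-Venus negative fraction (2 samples) and a Hoxb6-Venus positive fraction (2 samples), and total RNA of each was read on its own 1-colour Agilent array. Both fractions therefore share the cell line, the reporter, the feeder cells, the day and the Flk-1 gate, and the source is 1 cell line; whether the duplicates came from separate cultures is not given, so the p-values reflect only how far these samples differ from each other, and that spread may be technical. With 2 arrays in each fraction an exact two-sided permutation test could not go below p = 0.333, so the tests below are from limma, which pools the spread across features. In each fraction 1 array lay in row 1 of the single slide and the other in row 2, in step with the replicate numbers. Both Venus-negative arrays lay in column 2 and both Venus-positive arrays in column 3, so slide column and fraction cannot be told apart. Between 50.7% and 53.0% of spots were well above background on each array and 0 were saturated. Hoxb6 itself had processed signals of 925 and 685 in the Venus-negative and 1712 and 1875 in the Venus-positive samples, 1.01 ± 0.16 higher on the log2 scale (SE, n = 2 and 2, limma adjusted p = 0.0717). Kdr was bright on all 4 arrays, with 20831 and 16275 in the Venus-negative and 28600 and 27033 in the Venus-positive samples. Its log2 difference was 0.44 ± 0.11 (SE, limma adjusted p = 0.138).

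Lateral plate mesoderm is the outer sheet of embryonic mesoderm, which splits into a layer lining the body wall, the source of limb mesenchyme, and a layer around the gut, the source of visceral smooth muscle and heart. Foxf1 and Foxf2 mark the layer around the gut and are known targets of Hedgehog signals from the endoderm; Foxf1 is also needed for vessel formation in extraembryonic mesoderm. Prrx1 and Prrx2 act in limb and facial mesenchyme, Msx1 and Msx2 are homeobox repressors induced by BMP signals, Pitx1 is a hindlimb determinant, and Irx3 acts in limb, heart and neural patterning.

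Foxf2, Msx1 and Msx2 had the largest differences between the fractions among the 7 tested genes, and the first 250 bases upstream of their annotated starts are shown because their differences have opposite signs, none of them past the threshold. The sequences are RefSeq's, in build GRCm38.p6, written 5′ to 3′ on the gene's own strand: Foxf2 at chr13:31625566-31625815 (plus strand), Msx1 at chr5:37824586-37824835 (minus strand) and Msx2 at chr13:53472781-53473030 (minus strand). Capitals mark exact matches, on either strand, to any of 7 short motifs searched for.
Foxf2: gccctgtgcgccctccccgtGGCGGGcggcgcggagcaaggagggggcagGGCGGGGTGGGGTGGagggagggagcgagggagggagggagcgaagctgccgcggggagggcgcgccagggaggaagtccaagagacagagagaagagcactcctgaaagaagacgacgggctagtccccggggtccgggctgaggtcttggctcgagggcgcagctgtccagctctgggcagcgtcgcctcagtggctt
Msx1: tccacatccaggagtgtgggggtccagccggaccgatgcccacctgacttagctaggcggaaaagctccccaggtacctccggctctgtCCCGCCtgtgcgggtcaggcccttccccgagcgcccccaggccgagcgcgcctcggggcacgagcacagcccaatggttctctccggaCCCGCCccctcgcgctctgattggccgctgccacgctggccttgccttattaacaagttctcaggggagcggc
Msx2: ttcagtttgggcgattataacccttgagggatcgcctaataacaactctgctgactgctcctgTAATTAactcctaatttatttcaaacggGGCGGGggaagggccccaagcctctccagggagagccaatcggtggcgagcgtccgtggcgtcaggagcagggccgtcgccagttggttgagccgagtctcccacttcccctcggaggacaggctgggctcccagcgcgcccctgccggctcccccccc
In the Foxf2 window, 2 matches to the GC box letters GGCGGG and 2 to CCACCC, a core shared by GLI-like and KLF sites, were found; the last 3 of these overlap, and CCACCC is read there on the opposite strand. The Msx1 window held 2 GGCGGG matches, both on the opposite strand. The Msx2 window held 1 match to the homeodomain core TAATTA, 187 bases before the start, and 1 GGCGGG, 159 bases before it. The table holds promoters for 6 of the 8 genes. GGCGGG was in 4 of these 6 (Foxf2, Prrx2, Msx1 and Msx2) and in 32.5% of 32851 promoters; CCACCC was in 3 (Foxf2, Prrx2 and Irx3) and in 28.1%; TAATTA was in 2 (Prrx1 and Msx2) and in 4.84%. Of the other motifs searched, the forkhead core GTAAACA was in 0 of the 6 windows and in 3.17% of promoters. The TATA box letters TATAAA were in 0 and in 12.4%. The GATA core AGATAA was in 0 and in 9.99%. The Smad letters GGCGCC, rich in G and C, were in 0 and in 9.59%. The windows of Foxf2, Msx1 and Msx2 were 71.6%, 68.0% and 61.6% G or C, with 21, 20 and 16 CpG dinucleotides, against medians of 52.4% and 6 over all promoters. A match describes letters and not a bound site.

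Of the forkhead pair, Foxf2 was measured on all 4 arrays and Foxf1 on 1. Foxf2 had processed signals of 37.4 and 32.4 in the Venus-negative samples and of 196 and 91.9 in the Venus-positive samples. Both Venus-positive values lay above both Venus-negative ones, and the Venus-positive values lay 0.99 apart on the log2 scale, a wider gap than for 96.7% of all genes tested. On the log2 scale after centring each array on its 75th percentile, Foxf2 was -3.41 ± 0.012 in the Venus-negative and -1.62 ± 0.70 in the Venus-positive fraction (mean ± SD, n = 2 each). The difference was 1.79 ± 0.37 (SE), or 3.46-fold, with a 95% interval of 0.74 to 2.84, and did not pass the threshold of 0.05 (limma adjusted p = 0.107). It was 2.27 between the arrays of slide row 1 and 1.30 between those of row 2. With the model-based normexp background correction it was 0.88.

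Foxf1 was near the limit of detection. Its signals were 13.8 and 30.1 in the Venus-negative and 7.42 and 6.53 in the Venus-positive samples, and only the second Venus-negative value was well above background. Measured means were -4.19 ± 0.93 and -5.89 ± 0.054 (log2, SD, n = 2 each). When dim probes were kept in the fit the difference was -1.71 ± 0.51 (SE) with a limma adjusted p of 0.286, and with normexp it was -0.37; no fold is given for values of which 1 of 4 was measured. Fendrr, the noncoding gene beside Foxf1, had signals of 11.4, 26.7, 7.88 and 11.5 in the same order, and was likewise well above background only on the second Venus-negative array.

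Msx1 and Msx2, the BMP-induced repressors, had lower signals in the Venus-positive fraction, without overlap between the fractions. The fractions did not overlap for 61.7% of all genes tested. Msx1 gave 3931 and 3098 in the Venus-negative and 2155 and 983 in the Venus-positive samples. Its log2 level was 3.23 ± 0.11 against 1.82 ± 0.72 (SD, n = 2 each), and the Venus-positive arrays lay 1.02 apart, further than for 97.0% of genes. The difference was -1.42 ± 0.39 (SE), or 2.67-fold, with a 95% interval of -2.52 to -0.32 and a limma adjusted p of 0.150. Msx2 gave 1109 and 1542 in the Venus-negative and 875 and 659 in the Venus-positive samples. Here the level was 1.82 ± 0.47 against 0.88 ± 0.21, and the difference of -0.94 ± 0.28 (SE, 1.92-fold) had a 95% interval of -1.74 to -0.15 and a limma adjusted p of 0.170. Within row 1 of the slide the differences were -0.98 for Msx1 and -0.46 for Msx2, and within row 2 they were -1.85 and -1.42. Neither gene passed the threshold.

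The limb mesenchyme pair Prrx1 and Prrx2 lay close to 0. Of the 2 Prrx1 probes, probe A (the one with the higher mean signal, which represents the gene) gave 236 and 262 in the Venus-negative and 233 and 216 in the Venus-positive samples. After centring, the fractions did not overlap (-0.57 ± 0.24 against -0.88 ± 0.0036), and the difference was -0.31 ± 0.15 (SE) with a 95% interval of -0.74 to 0.13 and a limma adjusted p of 0.323. Probe B gave 71.1, 47.1, 58.7 and 48.8 in the same order, with overlapping fractions and a difference of -0.27 ± 0.18 (95% interval -0.79 to 0.25, limma adjusted p = 0.441 over all probes that passed). The probes thus had differences of the same sign and like size. Prrx2 gave 1865 and 1219 in the Venus-negative and 1708 and 1194 in the Venus-positive samples. Its replicate 1 value was higher than its replicate 2 value in both fractions, by 0.42 and 0.41 on the log2 scale, which exceeds the difference between the fractions of -0.24 ± 0.23 (SE, 95% interval -0.90 to 0.43, limma adjusted p = 0.593).

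Pitx1 and Irx3 had higher means in the Venus-positive fraction. Pitx1 gave 1219 and 2741 in the Venus-negative and 3361 and 3767 in the Venus-positive samples. The second Venus-negative array and the first Venus-positive array had nearly the same log2 level (2.98 and 2.97), so the fractions overlapped. The Venus-negative arrays lay 1.36 apart, further than for 98.3% of genes, and the difference of 0.80 ± 0.51 (SE) had a 95% interval of -0.65 to 2.25 and a limma adjusted p of 0.416. Without Venus-negative replicate 1 it was 0.12, and without Venus-negative replicate 2 it was 1.48. Irx3 gave 751 and 621 in the Venus-negative and 940 and 1050 in the Venus-positive samples, with no overlap. Its log2 level was 0.88 ± 0.061 against 1.27 ± 0.19 (SD, n = 2 each), a difference of 0.38 ± 0.14 (SE, 95% interval -0.0075 to 0.78, limma adjusted p = 0.218).

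**Figure D1:**
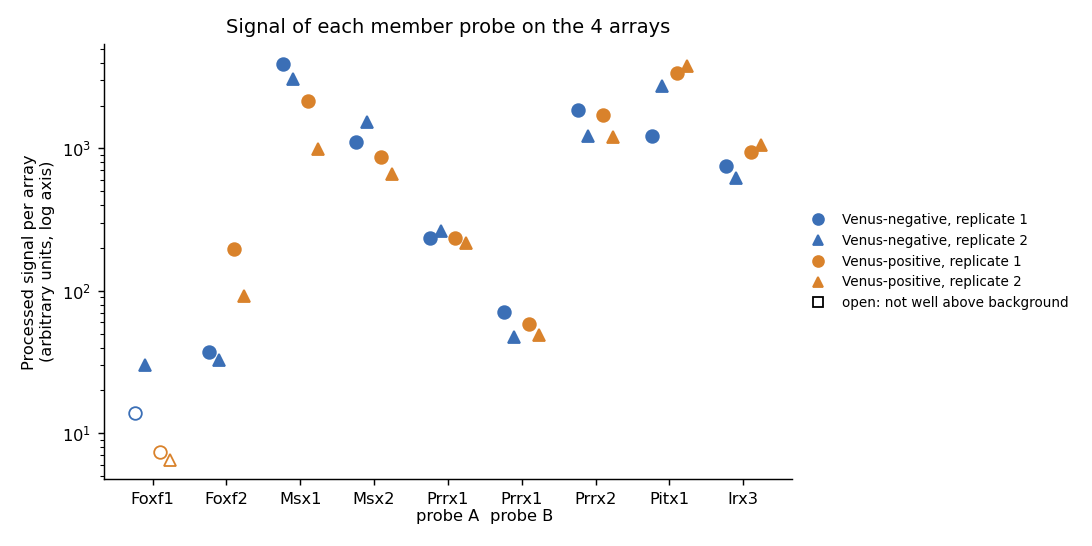
Processed signal (log axis, arbitrary units) of the 9 probes on each of the 4 arrays; colour gives the fraction, shape the replicate, and open symbols are not well above background. Foxf2 lies between 91.9 and 196 in the Venus-positive and between 32.4 and 37.4 in the Venus-negative samples, Msx1 lies the other way round, and levels of different probes are not comparable.

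Of the 7 tested genes, 0 were called higher and 0 lower at a limma adjusted p of 0.05, where 0.984% of all genes tested were called higher (137) and 1.85% lower (257). At an unadjusted p under 0.05 there was 1 higher (Foxf2) and 2 lower (Msx1 and Msx2) of the 7, beside 14.1% of all genes higher and 11.9% lower at that limit. The fractions did not overlap for 5 of the 7, beside 61.7% of all genes tested, which is near that background. Their median log2 difference was -0.24, with 3 above and 4 below 0, against a median of 0.01 over all genes; without Venus-negative replicate 1 their median was -0.024 and without Venus-positive replicate 2 it was -0.032. For scale, the median size of a difference over all genes was 0.23, and the median gap between replicates was 0.17 in the Venus-negative and 0.15 in the Venus-positive fraction. Each of the 7 kept its sign in all 12 alternative settings. The differences ran from 0.88 to 2.28 for Foxf2, from -1.93 to -0.91 for Msx1, from -1.27 to -0.61 for Msx2 and from 0.25 to 0.52 for Irx3. They ran from -0.48 to -0.14 for Prrx1 and, reaching close to 0, from -0.45 to -0.024 for Prrx2. The lowest limma adjusted p of any of them in any setting was 0.0578, for Foxf2 with a signal-dependent prior.

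**Figure D2:**
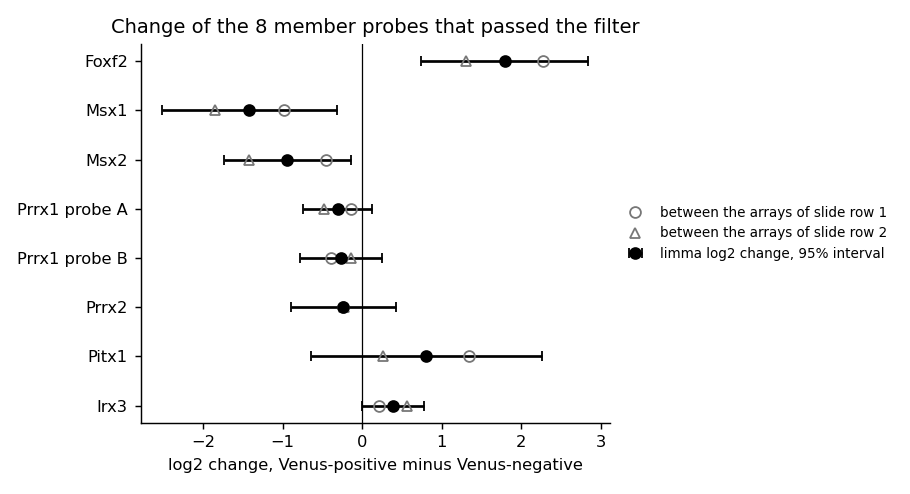
Log2 difference (Venus-positive minus Venus-negative) of the 8 probes that passed the filter, with limma 95% intervals (filled) and the differences within each slide row (open). The intervals of Foxf2, Msx1 and Msx2 lie to one side of 0 before adjustment, Pitx1 has the widest, and the row values of Prrx2 (-0.24 and -0.23) sit on its mean.

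Of the relatives of these genes given here, a list of 16 of which 11 were tested, Msx3 differed by -1.39 ± 0.31 (SE, limma adjusted p = 0.115; -0.76 with normexp), the same sign as Msx1 and Msx2, and did not pass. Pitx3, a paralogue of Pitx1 known from lens and midbrain, differed by -0.11 ± 0.12 (limma adjusted p = 0.649), against the positive difference of Pitx1 given above; the difference between the 2 genes was not tested. The list is not complete, so no count or median over it is given. The 5 relatives not tested (Shox2, Alx1, Alx4, Foxl1 and Foxd1) were not well above background on both arrays of either fraction.

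Irx3 lies in a gene cluster with Irx5 and Irx6, and all 3 had higher values in the Venus-positive samples without overlap. In either direction 61.7% of all genes tested had no overlap. Irx5 gave 84.2 and 63.0 against 177 and 142, a difference of 0.96 ± 0.15 (SE, limma adjusted p = 0.0705). Irx6 gave 47.6 and 62.4 against 188 and 149, a difference of 1.46 ± 0.24 (limma adjusted p = 0.0801). Of the second cluster, Irx1, Irx2 and Irx4 had differences of 0.083, -0.39 and -0.019. None of the 6 Irx genes passed the threshold here; with normexp Irx5 and Irx6 passed (adjusted p = 0.0397 and 0.0418, log2 differences 0.64 and 0.84). Beside Foxf2 lies the forkhead gene Foxq1, with 468 and 321 in the Venus-negative and 1522 and 653 in the Venus-positive samples, a difference of 1.20 ± 0.43 (limma adjusted p = 0.219), while Foxc1, on the other side of Foxf2, differed by -0.20 ± 0.11. As with Foxf2, the higher Venus-positive value of Foxq1 was that of replicate 1. Of the 32 protein-coding genes that lie nearest to the 8, 2 on each side, 23 were tested; limma called 0 in either direction, and 5 were higher and 2 lower at an unadjusted p under 0.05 (14.1% and 11.9% of all genes). Their median difference was 0.11. The largest was that of Irf8, a regulator of myeloid cells beside Foxf1 (1.47 ± 0.19, limma adjusted p = 0.0600), and the largest below 0 that of Nsg1, a neuronal vesicle gene near Msx1 (-1.12 ± 0.20, limma adjusted p = 0.0872); with normexp both passed (adjusted p = 0.0180 and 0.0274). In a shorter list of neighbours picked by hand the largest were Irx6 and the monooxygenase gene Fmo1 (1.31 ± 0.59, well above background on 1 of 2 Venus-negative arrays, limma adjusted p = 0.284; 0.38 with normexp).

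**Figure D3:**
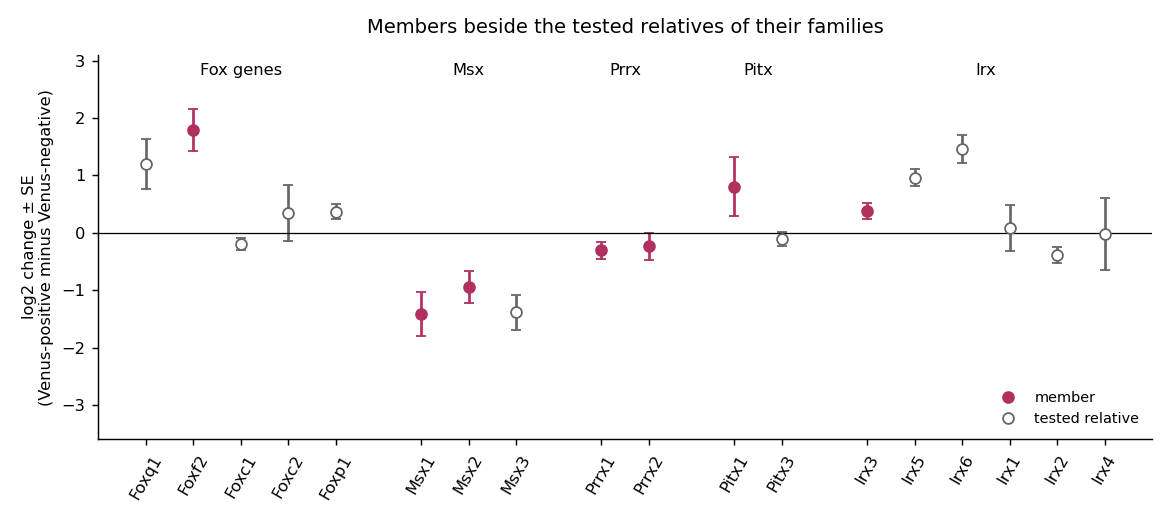
Log2 difference ± SE (Venus-positive minus Venus-negative) of the tested genes (filled) and their tested relatives (open), by family. Foxq1 at 1.20 lies on the side of Foxf2, Msx1, Msx2 and Msx3 lie below 0, and Irx3, Irx5 and Irx6 lie above 0.

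Of 23 other regulators of the lateral plate, limb and heart fields, 19 were tested. Of these, 1 was called lower and 0 higher, beside 1.85% and 0.984% of all genes. Their median difference was -0.74 against 0.01 over all genes, and -0.42 with normexp. Of the 19, 16 had a value below 0, as 48.1% of all genes had. The 19 include Hoxb6, whose reporter was used for the sort and whose value was above 0. On all 4 arrays 16 of the 19 were well above background. The others, Tbx20 among them, passed the filter only through the Venus-negative arrays. The called gene was Gata4, a regulator of heart and visceral mesoderm, which fell by 3.62 ± 0.32 on the log2 scale (12.3-fold, limma adjusted p = 0.0395); with normexp the fold was 6.32. Tbx20, a heart regulator, was not well above background on either Venus-positive array. Its measured difference was -2.92 ± 0.47 (limma adjusted p = 0.0775), and with normexp it was 1.49-fold lower. With its Venus-positive values raised to the lowest signal well above background on each array, it was 3.24-fold lower. That is no firm bound, because some brighter probes were also not well above background. Isl1 and Hand2, regulators of the second heart field and of limb and heart mesoderm, had differences of -1.50 ± 0.24 (limma adjusted p = 0.0777; -0.81 with normexp) and -0.90 ± 0.53 (limma adjusted p = 0.387). Because each sample is a sorted population measured in bulk, fewer cells of a type and less RNA per cell cannot be told apart.

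The BMP pathway, upstream of the Msx genes, had 2 genes called lower and 0 called higher of 19 tested (of 21 listed). Over all genes 1.85% were called lower and 0.984% higher. The median of the list was -0.32 (-0.23 with normexp), with 8 genes above and 11 below 0. The ligand Bmp7 fell by 3.57 ± 0.11 on the log2 scale (11.9-fold, limma adjusted p = 0.0246), from signals of 2068 and 1775 to 195 and 165. The secreted antagonist Grem1 fell by 1.31 ± 0.12 (limma adjusted p = 0.0421); its adjusted p was 0.0544 with normexp, where the difference was -0.49, and 0.0559 with quantile normalization. The ligand Bmp5 differed by -2.33 ± 0.40 (well above background on 1 of 2 Venus-positive arrays, limma adjusted p = 0.0829); with normexp it was -0.95 and passed (adjusted p = 0.0429). Bmp4 was bright on all 4 arrays, from 22431 to 34810, and differed by -0.49 ± 0.14 (limma adjusted p = 0.163). Id2, a BMP target as the Msx genes are, had a difference of the opposite sign, 0.83 ± 0.31 (limma adjusted p = 0.231). Its relatives Id1 and Id3 also had positive differences, with overlapping fractions, of 0.45 ± 0.52 and 0.43 ± 0.44 (limma adjusted p = 0.647 and 0.604). Its relative Id4 had a difference of the same sign as the Msx genes, -1.04 ± 0.47 (limma adjusted p = 0.288). The Hedgehog pathway, upstream of the Foxf genes, had 2 called lower and 0 higher of 13 tested (of 14 listed). Its median was -0.34 (-0.19 with normexp). Gli1, both effector and target of the pathway, fell by 2.57 ± 0.13 (5.93-fold, limma adjusted p = 0.0342), and the co-receptor Boc fell by 1.39 ± 0.11 (limma adjusted p = 0.0353). The co-receptor Gas1 and the receptor and target Ptch1 differed by -1.76 ± 0.20 and -0.90 ± 0.10, each with a limma adjusted p of 0.0512; Gas1 passed under 5 of the alternatives and Ptch1 under 2. In the same list 4 of 13 genes had values above 0, the largest being the ligand Dhh (1.36 ± 0.30, limma adjusted p = 0.114). Leaving out any 1 of the 4 arrays left 0 genes called in the series, these included; the signs of the genes called in this paragraph held.

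**Figure D4:**
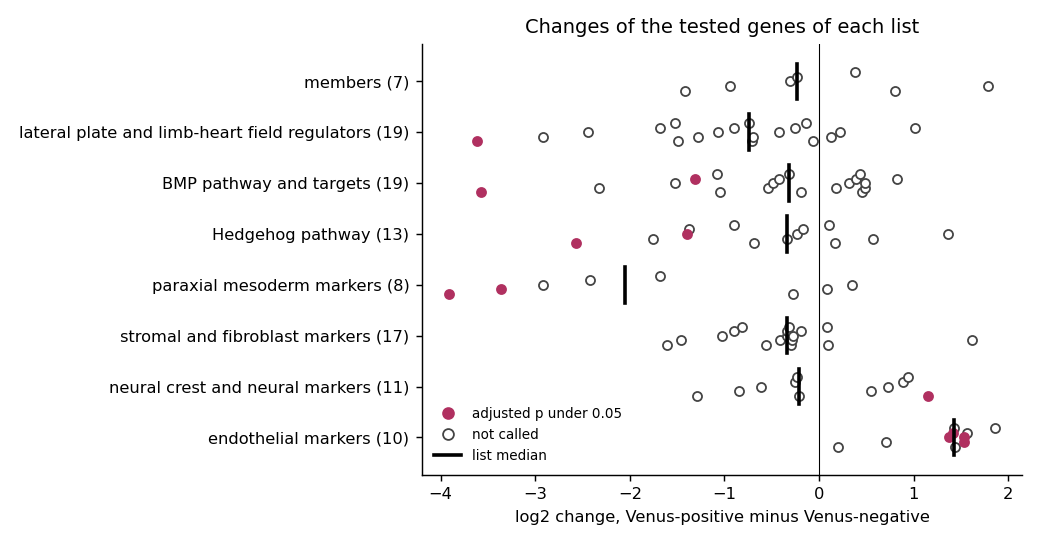
Log2 difference (Venus-positive minus Venus-negative) of every tested gene of 8 lists, with the number tested in brackets, genes called at a limma adjusted p of 0.05 filled, and the median of each list as a bar. The 7 genes lie on both sides of 0 with none called, lateral plate regulators have a median of -0.74, and endothelial markers one of 1.43.

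Markers of other cells that a Flk-1 sort from a feeder culture could hold moved with the fractions and with the replicates. Of 10 endothelial markers, all tested, all were higher in the Venus-positive fraction and 4 were called: Sox18 (1.53 ± 0.11), Tek (1.53 ± 0.17), Ecscr (1.41 ± 0.13) and Esam (1.38 ± 0.096), with limma adjusted p from 0.0349 to 0.0479. Over all genes 0.984% were called higher and 1.85% lower. The junction genes Cldn5 (1.86 ± 0.32) and Cdh5 (1.56 ± 0.42) did not pass (limma adjusted p = 0.0840 and 0.148), but passed with the slide row as a block (0.0498 and 0.0477). The summed signal of the 10, in units of each array's 75th percentile and weighted towards bright probes, was 194 and 244 in the Venus-negative and 412 and 499 in the Venus-positive samples. It was higher in replicate 2 in both fractions, as Pitx1 was; 9 of the 10 genes had this pattern, found after the data were seen, and 35.7% of all genes did. Of 8 paraxial mesoderm markers tested (of 10 listed), 6 had values below 0, as 48.1% of all genes had, and 2 above. Mesp2, 1 of these 6, passed the filter only through the Venus-negative arrays, and the other 7 markers were well above background on all 4. Called lower were 2, Dll3 (-3.91 ± 0.25, limma adjusted p = 0.0342) and Msgn1 (-3.37 ± 0.26, limma adjusted p = 0.0354; -1.93 with normexp). The summed level of the 8 was 22.3 and 20.7 against 6.59 and 5.18.

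Stromal and fibroblast markers, which the OP9 feeder cells would carry and mesenchyme with Prrx1 and Prrx2 could carry as well, had 0 calls among 17 tested (of 18 listed; 0 higher and 4 lower at an unadjusted limma p under 0.05, beside 14.1% and 11.9% of all genes) and a median of -0.34. Their summed level was 137 and 138 in the Venus-negative and 106 and 84.2 in the Venus-positive samples. The largest differences were those of Postn (1.61 ± 0.65, limma interval -0.23 to 3.45, limma adjusted p = 0.251) and Thy1 (-1.60 ± 0.39, limma adjusted p = 0.128). Postn passed the filter only through the Venus-positive arrays. With normexp it was 1.08-fold higher in that fraction. With Venus-negative values raised, where lower, to the lowest signal well above background on each array, it was 2.14-fold higher. That is no firm bound. Its signal of 16.3 in Venus-negative replicate 1 was not well above background, although the lowest signal well above background on that array was 13.7. Lum, a matrix proteoglycan named after its values were seen, split by replicate: 316 and 64.3 in the Venus-negative and 313 and 50.4 in the Venus-positive samples. Dcn, another such proteoglycan, gave 89.9, 9.11, 71.9 and 4.86 and was well above background only in replicate 1 of each fraction. Prrx2 was higher in replicate 1 of both fractions too, as were Foxf2 and Msx1, 9 of the 17 stromal markers and 34.5% of all genes. Prrx1 was not (replicate 1 minus replicate 2 of -0.34 and 0.0051). Of the 17 stromal markers 6 were higher in replicate 2 of both fractions, beside 35.7% of all genes. Of neural and neural crest markers, where Msx genes are also known to act, 11 of 14 were tested. The 1 called higher (0.984% of all genes were) was Ets1 (1.15 ± 0.12, limma adjusted p = 0.0469), a gene that endothelium carries as well. Of the 11, 10 were well above background on all 4 arrays, whereas Tfap2b, Foxd3 and Pax6 were on none. The median was -0.21, with 5 genes above and 6 below 0. At an unadjusted limma p under 0.05, 5 were higher and 2 lower, beside 14.1% and 11.9% of all genes. The 5 were Ets1, Nes, Pax3 (0.94 ± 0.33), Sox3 (0.55 ± 0.19) and Tfap2a (0.73 ± 0.19, well above background on 1 of 2 Venus-negative arrays). The 2 lower were Sox10 (-0.84 ± 0.14) and Zic1 (-0.61 ± 0.13). Ngfr differed by -1.29 ± 0.59 (limma adjusted p = 0.291). The summed level of the 11 was 14.1 and 13.2 against 20.4 and 21.9. Without Ets1 and Nes, which endothelium also carries, it was 5.80 and 3.79 against 3.81 and 2.23. This reduced sum is weighted towards its brightest gene, Ngfr, with signals of 1615 and 842 against 900 and 312. It therefore does not show the higher values of Pax3, Sox3 and Tfap2a. The part of any of these cell types in the differences of the 8 genes was not tested.

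**Figure D5:**
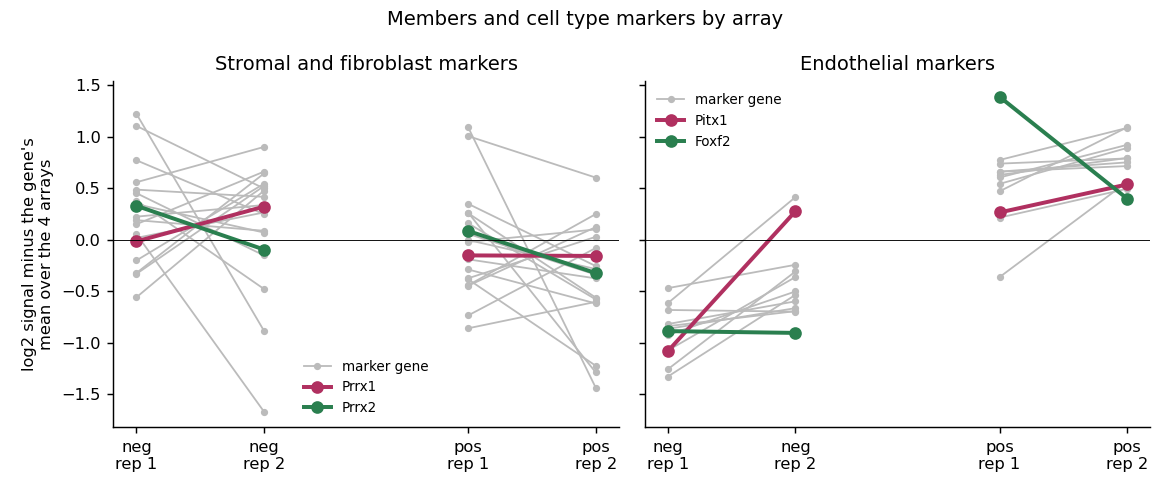
Log2 signal on each array minus the gene's mean over the 4 arrays, with stromal and fibroblast markers (grey) beside Prrx1 and Prrx2 on the left and endothelial markers (grey) beside Pitx1 and Foxf2 on the right; lines join the replicates of a fraction. In both fractions Pitx1 is higher in replicate 2, as 9 of 10 endothelial markers are, whereas Foxf2 is higher in replicate 1 of the Venus-positive fraction.

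Each tested gene was set beside the 13228 named genes well above background on all 4 arrays, by the Euclidean distance between their log2 values on the 4 arrays after centring each gene on its own mean. The 3 nearest to Foxf2 were Hmcn1 (distance 0.12), Ednrb (0.24) and Wt1 (0.34), which were 1.87, 1.62 and 1.55 higher in the Venus-positive fraction on the log2 scale. Nearest to Msx1 were Vipr1 (0.057), Dclk1 (0.16) and Crabp1 (0.20). Nearest to Msx2 were Vsir (0.15), Wdr86 (0.17) and Hbb-b2 (0.17). Nearest to Pitx1 were Stat4 (0.21), Robo4 (0.24) and 1700125H20Rik (0.25). Genes with small differences had many near neighbours: Tle6, Tatdn1 and Ssu2 for Prrx1, Mycbp, Chd5 and Apobr for Prrx2, and Mppe1, Dnah8 and Rnf185 for Irx3, all within 0.074. Likeness over 4 arrays is a description only: with normexp 0 or 1 of the 3 stayed nearest, and with quantile normalization 0 to 3 did. Among the genes themselves, Prrx1 and Prrx2 lay closest at 0.61, with 61.6% of genes nearer to Prrx1 than Prrx2 was. Msx1 and Msx2 lay 0.91 apart, with 3.70% of genes nearer to Msx1 than Msx2 was. Msx2 lay nearer to Prrx1, at 0.71, than to Msx1, though 70.8% of genes were nearer still to Prrx1. Foxf2 and Msx1 lay farthest apart at 3.21.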

How the data were processed

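Intensity values per spot were deposited by the authors as scanner tables from Agilent Feature Extraction 10.10.1.1 (array design on mm9), per the file headers. The processed signal is background-subtracted and detrended within each array, per the file headers; the deposited value table holds this signal multiplied by a constant for each array. Spots flagged as outliers were left out, spots of a probe averaged, and log2 signals centred on each array's 75th percentile (signals of 396 and 347 for Venus-negative, 429 and 398 for Venus-positive arrays). Accessions were matched to symbols through RefSeq (21465 of 37881). For each gene the probe of highest mean signal was kept, giving 23548 features (13926 genes, 9622 unnamed). The test was limma 3.58.1 (R 4.3.3; package data.table, version 1.17.8), Benjamini-Hochberg over all features, threshold 0.05; residual degrees of freedom were 2 and prior ones 1.80. The script was tested on simulated data. Only 4 arrays limit the precision.

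Members and lists were chosen with earlier results of these data known. Named were all members, Hoxb6, Kdr, the called genes and the 2 largest differences of each list, and the 3 genes most like each member. Irx5, Foxq1, Isl1, Hand2, Bmp4, Id2, Id4, Ptch1, Dhh, Irf8, Nsg1 and Lum were added after their values were seen. The same holds for Id1, Id3, Mesp2, Pax3, Sox3, Tfap2a, Sox10 and Zic1. So were the untested Fendrr and Dcn, and the relatives and neighbours beside these genes in their families. Alternatives were normexp, median scaling, quantile normalization, a signal-dependent prior, the replicate block, the mean over probes, dim probes kept, the value table, and each array left out. Normexp used the median signal and median background, since mean signals were not used here. Protein sequences were not used here, and some relatives and markers are not reported here.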

Additional observations from a re-analysis of the deposited data

How the results depend on the processing

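The 7 tested genes kept their sign and stayed short of the threshold under all 12 alternatives (the deposited value table gives the same differences by construction). Over all genes, where 137 were called higher and 257 lower (65.2% of calls lower), limma called 491 and 538 with normexp, 259 and 296 with median scaling (53.3% lower), 597 and 650 with a signal-dependent prior, and 290 and 421 with the replicate block. With dim probes kept it called 0 and 0 (1736 and 1783 at an unadjusted p under 0.05), and leaving out 1 array gave 0 to 0 in each direction (1105 to 1514 higher and 1111 to 1331 lower unadjusted), with the lone sample assumed to vary like the other group. Median scaling moved the median of all genes to 0.084. The replicate number coincides with the slide row: replicate 1 minus replicate 2 correlated between fractions with r = 0.414 over all features, with the same sign for 67.2% of features and for 4 of 7 members, and the labels do not tie the numbers to a shared culture or sort. With the block, Grem1 had an adjusted p of 0.0510, Irx5 (0.0486), Isl1 (0.0476), Thy1 (0.0434), Gas1 (0.0429), Cldn5 (0.0498), Cdh5 (0.0477), Irf8 (0.0437) and Nsg1 (0.0443) passed, and no member passed (lowest 0.0824, Foxf2). Genes named beside Prrx2 or among stromal markers changed sign when 1 array was left out: Mycbp ran from -0.41 to 0.030, Chd5 from -0.45 to 0.013 and Lum from -1.60 to 0.92. Hoxb6 passed with normexp (0.0338) and the signal-dependent prior (0.0282), and Kdr passed with that prior (0.0477). The cause of these changes was not tested. Signals near background, as for Foxf1, have no followed level.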
